A study of Mus musculus with 6 samples.

Results

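The expression of collagens and of the genes that assemble and remodel the extracellular matrix was compared in liver of WT and Fmo5-/- mice. Genes were taken by symbol from the deposited gene table, a rule that uses no measured value: collagen chains (Col), matrix metalloproteinases (Mmp), Timp1 to Timp4, lysyl oxidases (Lox) and laminin chains (Lama, Lamb and Lamc). The rule found 89 of 54446 genes. These were 11 chains of fibrillar collagens, 8 chains of the basement membrane collagens IV, XV and XVIII, 25 chains of other collagens, 11 laminin chains, 5 lysyl oxidases, 23 Mmp genes, 4 Timp genes and 2 genes whose symbols only begin like those of the families. The latter are Col4a3bp, which encodes a ceramide transfer protein, and Loxhd1, which encodes a protein of hair cell stereocilia. The animals were male C57BL/6J WT mice (3 liver samples) and male Fmo5-/- mice generated on the C57BL/6J background (3 liver samples). All were 32 weeks of age, ate standard chow and were housed in adjacent cages. Livers were taken in the morning and frozen at once. RNA was sequenced as single reads, and the measurement is the number of reads that fell on each gene. Fmo5 encodes flavin-containing monooxygenase 5, an enzyme of hepatocytes, and the comparison addresses how liver gene expression differs when the gene is disrupted.

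Fibrillar collagens form the tensile fibres of connective tissue, which in healthy liver are sparse and lie mainly around portal tracts and central veins. Type IV collagen and laminins form the sheets of basement membranes, and types XV and XVIII carry fragments with effects on vessels, endostatin being released from type XVIII. Lysyl oxidases cross-link collagen and elastin, Mmp genes encode zinc proteases that cut matrix proteins, and Timp genes encode inhibitors of those proteases. Stellate cells and portal fibroblasts are the best known sources of fibrillar collagen in liver, whereas hepatocytes are a known source of type XVIII collagen.

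Between 44886286 and 52338675 reads per library were counted on genes, of which the 89 genes held 0.162% to 0.194%. The labels were checked on Fmo5. Its normalized count (the raw count scaled to a common library size) was 39808, 37405 and 30240 in the WT libraries and 1071, 1102 and 1194 in the Fmo5-/- libraries, a log2 fold change of -4.996 (standard error, SE, 0.14). The 10 hepatocyte markers were all detected, with a summed normalized count of 5220330 to 6626800 per library. In bulk liver, fewer cells of a type and less RNA per cell cannot be told apart.

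No matrix gene passed the main test, edgeR's, for a difference between the genotypes. Of the 89 genes, 60 had enough counts to be tested. In edgeR, 0 of the 60 had an adjusted p under 0.05 in either direction, against 1.37% of the 16734 genes tested (229 genes). At an unadjusted p under 0.05, 5 of the 60 were higher in Fmo5-/- (11.6% of all genes) and 3 were lower (10.2% of all genes). DESeq2, the tool the study used, called 3 of the 57 to which it gave an adjusted p, against 8.96% of all genes. Those 3 were Col20a1, higher in Fmo5-/-, and Mmp19 and Lamb3, lower in Fmo5-/-. The 3 Fmo5-/- libraries lay above all 3 WT libraries for 6 of the 60 genes (13.9% of all genes) and below them for 2 (13.5% of all genes). None of these shares exceeded that of all genes. Col4a3bp, caught by its symbol, is among the 60 tested genes. Without the 2 genes caught by symbol, 59 were tested. Of these, 2 were lower at an unadjusted p under 0.05 in edgeR, and 1 lay below all WT libraries. With no filter on low counts, edgeR called 6 of 83 matrix genes, near the 5.82% of all genes that it called in that fit. These were Col20a1, Mmp9, Mmp12 and Mmp27, higher in Fmo5-/-, and Lamb3 and Mmp19, lower. The median SE of a log2 fold change was 0.24 over the 60 genes and 0.15 over all genes tested.

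The means leaned upward without passing the test for any gene. Of the 60 genes, 39 had a higher mean in Fmo5-/-, against 50.8% of all genes tested. The median log2 fold change was 0.22 over the 60 and 0.01 over all genes. By subfamily the median was 0.24 for fibrillar collagens, -0.06 for basement membrane collagens, 0.32 for other collagens, 0.03 for laminins, 0.35 for lysyl oxidases, 0.38 for Mmp genes and -0.11 for the tested Timp genes. The size of this lean depended on single livers. Fmo5-/- replicate 2 was the highest of the 6 libraries for 31 of the 60 genes, against 22.5% of all genes, and WT replicate 1 was the lowest for 25 of the 60, against 19.0% of all genes. Without Fmo5-/- replicate 2 the median of the 60 was 0.06, without WT replicate 1 it was 0.10, without WT replicate 2 it was 0.14, and without WT replicate 3 it was 0.35. For fibrillar collagens alone the median was 0.04 without Fmo5-/- replicate 2 and 0.46 without WT replicate 3.

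**Figure D1:**
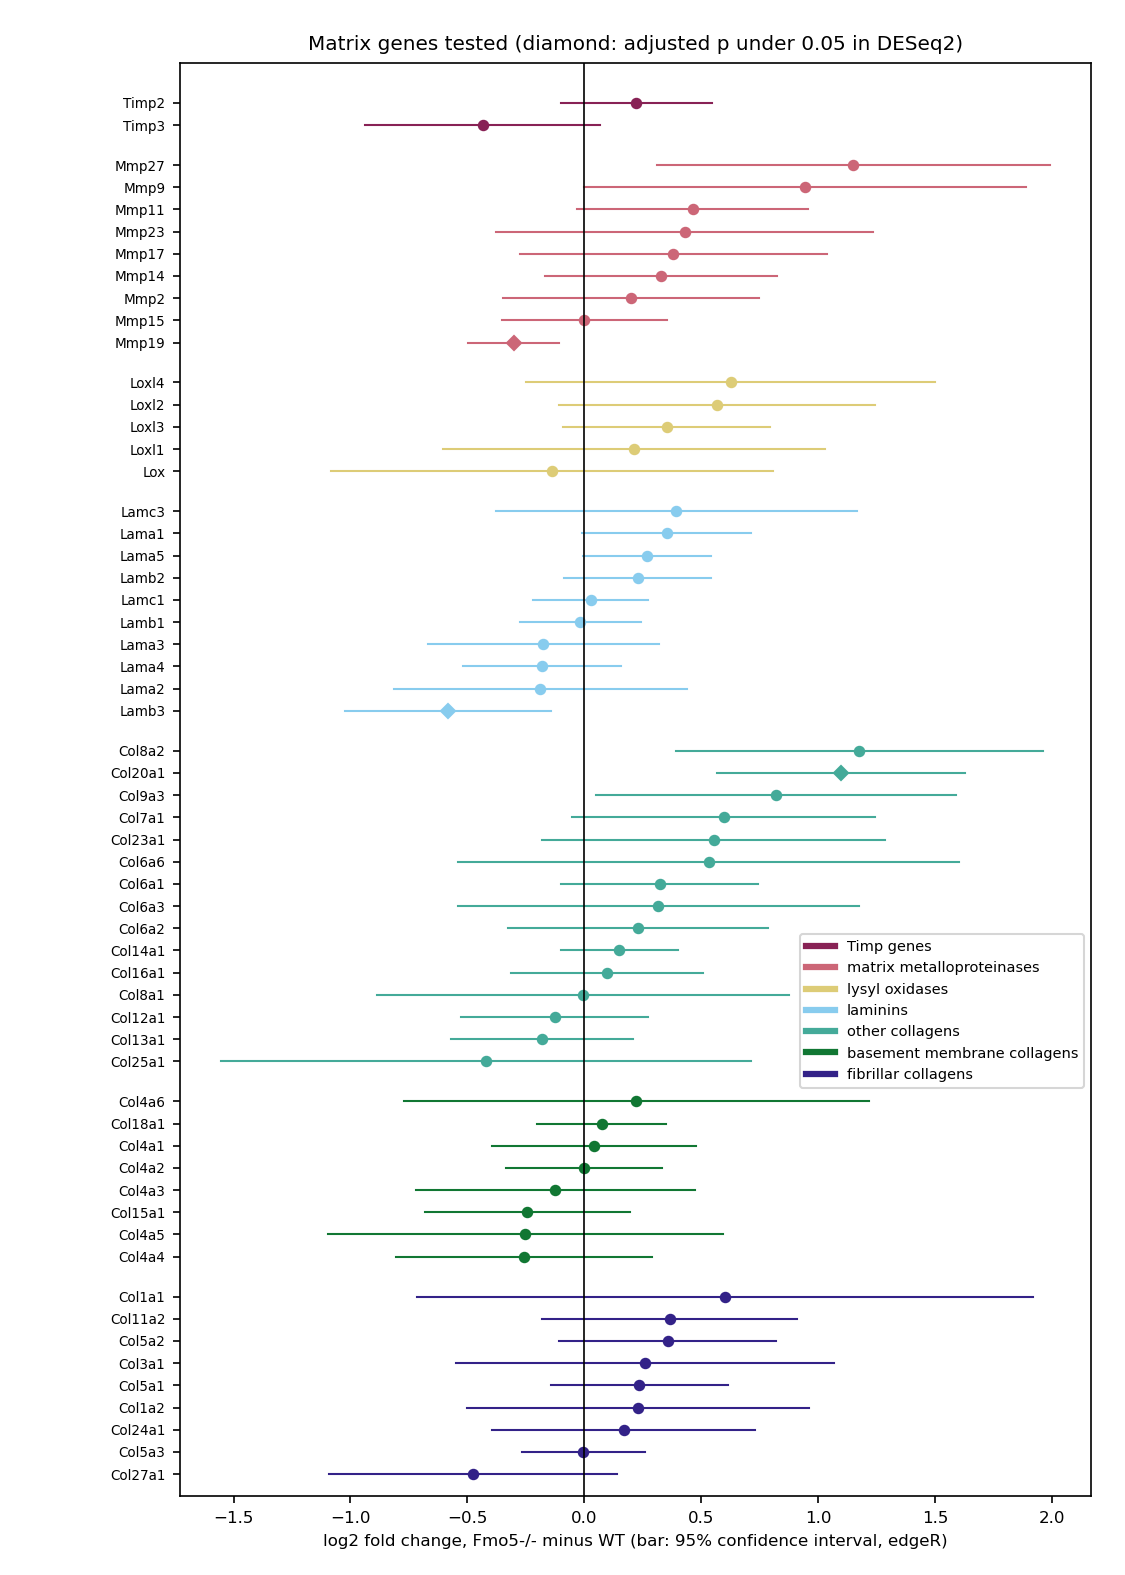
Log2 fold change (Fmo5-/- minus WT, x axis) of tested collagen, laminin, lysyl oxidase, Mmp and Timp genes (not every tested gene is drawn), with 95% confidence intervals from edgeR as bars and colours for subfamilies. Diamonds mark Col20a1, Mmp19 and Lamb3, the 3 genes that DESeq2 called, and most intervals of the other genes cross 0.

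Levels spanned several orders of magnitude. Between genes they were compared per length, as counts per kilobase of exon and depth (FPKM). Col18a1, the type XVIII chain, stood far above the rest at 142 ± 6.97 FPKM in WT and 149 ± 23.4 in Fmo5-/- (SD, n = 3 each), and it took 53.6% to 62.3% of all counts on the 89 genes in a library. Col5a3, a chain of type V collagen, followed at 23.8 ± 3.28 FPKM in WT. The most expressed protease genes were Mmp19 at 15.3 ± 1.26, Mmp15 at 8.80 ± 1.596 and Mmp14 at 4.31 ± 0.465 FPKM in WT. At the other end, 6 genes had no count in any library, namely Col2a1 and Col9a1, which encode cartilage collagens, and Mmp1a, Mmp1b, Mmp10 and Mmp20. A count of 0 in a library allows up to 3 counts there. The remaining 23 of the 29 untested genes had at most 36 counts in a library.

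**Figure D2:**
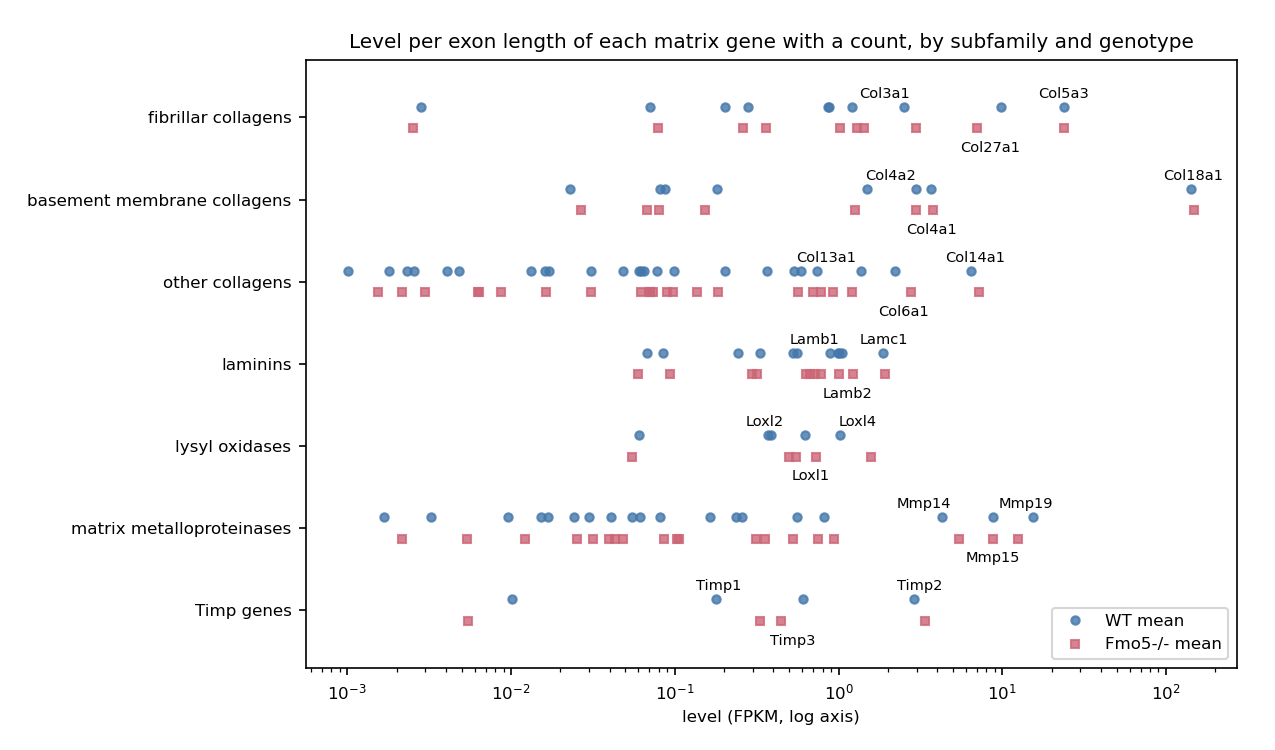
Level per exon length (FPKM, log x axis) of each matrix gene with a count, by subfamily on the y axis, with circles for the WT mean and squares for the Fmo5-/- mean (n = 3 each; a mean of 0 is not drawn). The 3 most expressed genes of each subfamily are named, and Col18a1 lies apart at 142 and 149 FPKM.

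Among fibrillar collagens, the most expressed chain had nearly the same mean in both genotypes, and others varied from liver to liver. Of the 11 chains, 9 were tested, 7 had a higher mean in Fmo5-/-, and the genotypes overlapped for all 9. Adjusted p ranged from 0.34 to 0.99. The normalized count of Col5a3 (chr9:20770050-20815067, mm10) was 8958, 6781 and 7945 in WT and 7632, 7369 and 8622 in Fmo5-/-. The genotypes overlap, and the log2 fold change was -0.00 (95% confidence interval -0.27 to 0.26). Col27a1 (chr4:63214004-63334991), a fibrillar chain otherwise known from cartilage, had 5169, 4989 and 8445 in WT and 4375, 3450 and 5556 in Fmo5-/-. Its highest value is WT replicate 3, and the log2 fold change of -0.48 (SE 0.26, adjusted p = 0.34) was -0.18 without that library.

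Most chains of the interstitial collagens were highest in the same libraries. Col1a1 (chr11:94936224-94953042), the main chain of type I collagen, had 131, 208 and 487 normalized counts in WT and 306, 575 and 373 in Fmo5-/-. Col3a1 (chr1:45311538-45349706), the single chain of type III collagen, had 842, 1010 and 1733 in WT and 1123, 1865 and 1308 in Fmo5-/-. In both genes WT replicate 3 and Fmo5-/- replicate 2 were the highest of their groups and the groups overlapped. Of the 10 tested chains of types I, III, V and VI, 8 had Fmo5-/- replicate 2 as the highest library and WT replicate 3 as the highest WT library (Col1a1, Col1a2, Col3a1, Col5a1, Col5a2, Col6a1, Col6a2 and Col6a3). The exceptions were Col5a3, highest in WT replicate 1, and Col6a6, which had 21.2, 23.4 and 20.4 in WT and 56.8, 14.7 and 22.6 in Fmo5-/-. The 8 were put together after their values were seen, so what they share is a description. Summed over the 8, the normalized count was 2789, 3283 and 5255 in WT and 3666, 6007 and 4247 in Fmo5-/-. Their log2 fold changes ran from 0.23 to 0.60, with adjusted p from 0.35 to 0.71, and from -0.02 to 0.30 when Fmo5-/- replicate 2 was left out. Without WT replicate 3, the log2 fold change was 1.31 for Col1a1 and 0.63 for Col3a1.

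The promoter sequences of 63 of the 89 genes were found in RefSeq (GRCm38.p6, the assembly of mm10). Sequences are shown for 3 interstitial chains that followed each other across the livers (Col3a1, Col5a1 and Col6a3) and for Col5a3 and Col27a1, which did not. Each is the 120 bases just before the transcript start, read 5′ to 3′ on the gene's strand, and carries no annotated exon. Capitals mark the letters of 4 motifs on either strand. The TATA box was searched as TATAAA. The CCAAT box was searched by the letters of its name. The GC box was searched as GGGCGG, and the AP-1 site as TGACTCA. Matches of different motifs may overlap. Of the promoter windows of all genes at this length, 6.34% hold the TATA letters, 21.3% the CCAAT box, 26.5% the GC box and 2.30% the AP-1 letters.
Col3a1, chr1:45311418-45311537, plus strand: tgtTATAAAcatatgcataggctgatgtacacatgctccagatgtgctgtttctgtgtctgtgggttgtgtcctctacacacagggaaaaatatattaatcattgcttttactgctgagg
Col5a1, chr2:27886305-27886424, plus strand: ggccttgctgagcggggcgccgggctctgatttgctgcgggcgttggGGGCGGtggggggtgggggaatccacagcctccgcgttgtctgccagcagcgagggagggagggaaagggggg
Col6a3, chr1:90843972-90844091, minus strand: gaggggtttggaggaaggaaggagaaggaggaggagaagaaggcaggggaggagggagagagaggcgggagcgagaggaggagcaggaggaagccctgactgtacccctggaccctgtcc
Col5a3, chr9:20815068-20815187, minus strand: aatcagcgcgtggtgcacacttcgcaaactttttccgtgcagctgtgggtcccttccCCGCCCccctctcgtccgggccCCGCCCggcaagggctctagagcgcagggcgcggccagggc
Col27a1, chr4:63215292-63215411, plus strand: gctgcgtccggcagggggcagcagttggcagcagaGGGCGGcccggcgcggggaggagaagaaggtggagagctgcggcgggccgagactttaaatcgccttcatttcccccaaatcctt
Col3a1 has TATAAA and 40.0% G and C, while Col5a1 has GGGCGG and 72.5% G and C. Col6a3 holds none of the 4 motifs in this window. The 3 chains shown that followed each other share none of these motifs. GGGCGG, as in Col5a1, also stands in Col5a3, in Col27a1 and in the same stretch of 1 of the listed starts of Col6a2, another of the 8 chains.

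Basement membrane collagens had log2 fold changes between -0.26 and 0.22. All 8 chains were tested, 3 had a higher mean in Fmo5-/- and 5 a lower one, and the smallest adjusted p was 0.51. Col18a1 (chr10:77052178-77166548) had 48078, 46477 and 51171 normalized counts in WT and 58884, 42890 and 51621 in Fmo5-/-. Both the highest and the lowest library are Fmo5-/-, and the log2 fold change of 0.07 has a 95% confidence interval of -0.20 to 0.35. Col4a1 (chr8:11198423-11312826), the first chain of type IV collagen, had 1090, 1406 and 1492 in WT and 1290, 1738 and 1078 in Fmo5-/-. Col4a2 (chr8:11312805-11449287), its partner chain, had 796, 1028 and 1048 in WT and 938, 1128 and 800 in Fmo5-/-. The partner genes lie head to head on opposite strands with 22 shared exon bases, and both were highest in Fmo5-/- replicate 2. Their log2 fold changes were 0.04 (SE 0.19) and -0.00 (SE 0.15).

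The other collagens included some of the largest differences in mean, at low levels. Of 25 chains 15 were tested, 11 had a higher mean in Fmo5-/-, and 3 had all Fmo5-/- libraries above all WT libraries, as did 13.9% of all genes. Col20a1 (chr2:180986535-181018363), a chain of the fibril-associated type XX collagen, had 72.0, 94.8 and 107 normalized counts in WT and 142, 237 and 209 in Fmo5-/-. The lowest Fmo5-/- library lies above the highest WT library. The log2 fold change was 1.10 (SE 0.23, 95% confidence interval 0.57 to 1.63), with an adjusted p of 0.056 in edgeR and 0.000744 in DESeq2. It lay between 0.94 and 1.28 when single libraries were left out. The gene stands at 0.364 ± 0.071 FPKM in WT and 0.781 ± 0.195 in Fmo5-/-, and 79 of its exon bases are shared with another gene model on the same strand. Col8a2 (chr4:126286793-126314330), a network-forming chain known from the cornea, had 6.35, 7.81 and 6.13 in WT and 12.1, 18.4 and 15.7 in Fmo5-/-, with no overlap and an adjusted p of 0.10 in edgeR. Col9a3, a chain of type IX collagen, also did not overlap, with 22.2, 11.2 and 10.2 in WT and 24.2, 27.5 and 25.5 in Fmo5-/- (adjusted p = 0.20). Its log2 fold change of 0.82 (SE 0.34) was 1.27 without WT replicate 1.

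The abundant members of the subfamily were closer between the genotypes. Col14a1 (chr15:55307750-55520803), which encodes a fibril-associated collagen, had 2311, 1937 and 2410 normalized counts in WT and 2205, 2753 and 2432 in Fmo5-/-. Its log2 fold change was 0.15 (SE 0.11), and 0.06 without Fmo5-/- replicate 2. Col6a1 (chr10:76708792-76726168), a chain of the beaded filaments of type VI collagen, had 390, 442 and 583 in WT and 495, 725 and 549 in Fmo5-/-. The groups overlap, with a log2 fold change of 0.32 (SE 0.18) that was 0.15 without Fmo5-/- replicate 2 and 0.51 without WT replicate 3. Col13a1, a transmembrane collagen, had a log2 fold change of -0.18 (SE 0.17), which was -0.01 without WT replicate 2 and -0.34 without WT replicate 3.

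Laminins are built of an alpha, a beta and a gamma chain, and all 11 chain genes were tested. The means of 6 were higher and of 5 lower in Fmo5-/-, and the smallest adjusted p was 0.13. Lamb3 (chr1:193207699-193343878), the beta chain of an epithelial laminin, had 353, 376 and 238 normalized counts in WT and 197, 254 and 194 in Fmo5-/-. WT replicate 3 lies below the highest Fmo5-/- library. The log2 fold change was -0.58 (SE 0.20), with an adjusted p of 0.13 in edgeR and 0.047 in DESeq2. Lama3, an alpha chain of epithelial basement membranes, had a log2 fold change of -0.17 (SE 0.22), which was -0.39 without WT replicate 1 and -0.04 without WT replicate 3. Lama5, an alpha chain of vessel and epithelial basement membranes, had 274, 283 and 317 in WT and 333, 381 and 340 in Fmo5-/-. Its groups do not overlap, and its adjusted p was 0.24. Lamc1 (chr1:153218922-153332786), the gamma chain of most laminins and the most expressed of the family per length, had 752, 767 and 761 in WT and 806, 861 and 655 in Fmo5-/-. Its log2 fold change was 0.03 (95% confidence interval -0.22 to 0.27), that of Lamb1, another beta chain, was -0.02 (SE 0.11), and that of Lamb2, a beta chain of vascular basement membranes, was 0.23 (SE 0.14), and 0.11 without Fmo5-/- replicate 2.

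The lysyl oxidases were all tested and none passed. The means of 4, Loxl1 to Loxl4, were higher in Fmo5-/-, and that of Lox was lower at under 21 normalized counts in every library, but not when WT replicate 3 or Fmo5-/- replicate 3 was left out. Loxl4 (chr19:42593982-42612813), the most expressed, had 266, 104 and 261 normalized counts in WT and 366, 381 and 227 in Fmo5-/-. The groups overlap, and the log2 fold change of 0.63 (SE 0.37, adjusted p = 0.38) was 0.30 without WT replicate 2. Loxl2, which cross-links type IV collagen, had 79.4, 85.9 and 128 in WT and 119, 209 and 106 in Fmo5-/-, with a log2 fold change of 0.57 (SE 0.30) that was 0.20 without Fmo5-/- replicate 2. Loxl1, which acts on elastin, had a log2 fold change of 0.21 (SE 0.36). This was -0.065 without WT replicate 1 and 0.70 without WT replicate 3.

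The Mmp genes ranged from abundant to silent. Of 23 genes 9 were tested, 7 of them with a higher mean in Fmo5-/- and 2 with a lower one. Mmp19 (chr10:128790910-128800824), which encodes a secreted protease of basement membrane proteins, had 2743, 2792 and 2393 normalized counts in WT and 2235, 2158 and 2040 in Fmo5-/-. All Fmo5-/- libraries lie below all WT libraries. The log2 fold change was -0.30 (SE 0.09, 95% confidence interval -0.50 to -0.11), with an adjusted p of 0.095 in edgeR and 0.047 in DESeq2. The gene shares 1001 exon bases with genes on the opposite strand. On the reads of 1 strand alone its log2 fold change was -0.22, with an adjusted p of 0.20 in edgeR. Whether the libraries keep the strand was not tested, so that fit does not settle what the shared bases contribute. Mmp14 (chr14:54431612-54445364), a membrane-bound collagenase that activates the Mmp2 product, had 1340, 1097 and 1322 in WT and 2143, 1247 and 1327 in Fmo5-/-. A single Fmo5-/- library stands apart, and the log2 fold change of 0.33 (SE 0.21) was 0.04 without that library, Fmo5-/- replicate 1. Mmp15 (chr8:95352268-95375080), another membrane-bound protease, had 1920, 2757 and 2276 in WT and 2384, 1944 and 2625 in Fmo5-/-, with a log2 fold change of -0.00 (95% confidence interval -0.35 to 0.35).

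**Figure D3:**
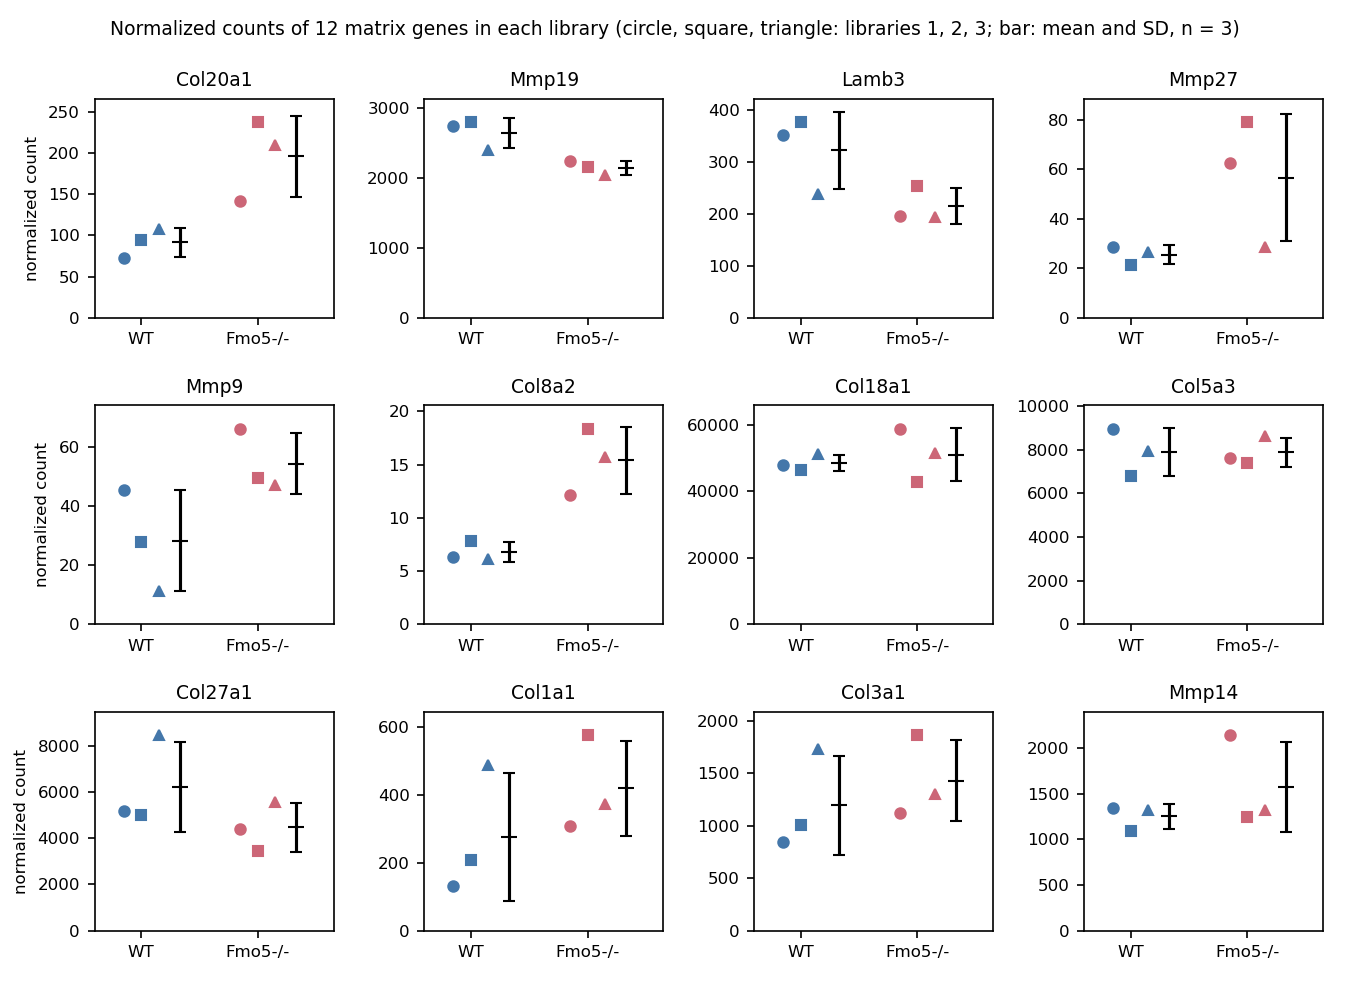
Normalized counts (y axis, from 0) of 12 matrix genes in each library, with circles, squares and triangles for libraries 1, 2 and 3 of a genotype and the mean with SD beside them (n = 3). The genotypes do not overlap for Col20a1, Mmp19, Mmp9 and Col8a2, while Col1a1 and Col3a1 share their highest libraries, WT 3 and Fmo5-/- 2.

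A cluster of 10 Mmp genes lies on chromosome 9 (chr9:7272514-7699585), and Mmp27 alone among them had enough counts to be tested. Mmp27 (chr9:7571396-7581885) had 28.6, 21.2 and 26.6 normalized counts in WT and 62.4, 78.9 and 28.5 in Fmo5-/-. Fmo5-/- replicate 3 lies within the WT range. The log2 fold change was 1.15 (SE 0.37), with an adjusted p of 0.12 in edgeR and 0.064 in DESeq2, and the gene was called when Fmo5-/- replicate 3 was left out, a fit that called 4.45% of all genes, and when low counts were not filtered. Mmp13 (collagenase 3) had 11 raw counts in the WT libraries and 36 in the Fmo5-/- libraries, too few for the test. Mmp12, the macrophage metalloelastase, had 17 and 55, and was called (adjusted p = 0.032) in the edgeR fit with no filter on low counts. The 4 cluster genes Mmp1a, Mmp1b, Mmp10 and Mmp20 had no count. Outside the cluster, Mmp9 (chr2:164940780-164955850), a gelatinase of myeloid cells, had 45.5, 27.9 and 11.2 normalized counts in WT and 66.1, 49.6 and 47.1 in Fmo5-/-. Its groups do not overlap but lie close, and the adjusted p was 0.23 for a log2 fold change of 0.94 (SE 0.42), which was 0.56 without WT replicate 3 and 1.48 without WT replicate 1.

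The promoter windows of the cluster were set beside those of the other Mmp genes, which include tested and untested genes. Of the 10 cluster genes, 7 hold TATAAA within 250 bases before their first listed start, 6 hold TGACTCA on either strand, and 0 hold GGGCGG. Mmp12 is not among the 6, but holds TGACTCA before another of its listed starts. Of the 8 other Mmp genes with a promoter entry, 1 holds TATAAA, 0 hold TGACTCA and 6 hold GGGCGG. Over all 32851 windows of 250 bases the shares are 12.4% for TATAAA, 4.46% for TGACTCA and 32.7% for GGGCGG. Windows of 120 bases are shown for Mmp13 and Mmp3, cluster genes with few reads, for Mmp27, the tested one, and for Mmp14, an abundant gene elsewhere, with capitals as above.
Mmp13, chr9:7272394-7272513, plus strand: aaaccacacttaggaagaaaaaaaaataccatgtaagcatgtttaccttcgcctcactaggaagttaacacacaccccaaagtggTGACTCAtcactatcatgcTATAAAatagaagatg
Mmp3, chr9:7445702-7445821, plus strand: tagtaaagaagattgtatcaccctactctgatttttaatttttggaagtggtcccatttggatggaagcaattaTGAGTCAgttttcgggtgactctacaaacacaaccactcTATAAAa
Mmp27, chr9:7571276-7571395, plus strand: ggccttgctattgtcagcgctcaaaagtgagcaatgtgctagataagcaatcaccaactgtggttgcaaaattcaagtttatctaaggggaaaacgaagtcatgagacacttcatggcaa
Mmp14, chr14:54431478-54431597, plus strand: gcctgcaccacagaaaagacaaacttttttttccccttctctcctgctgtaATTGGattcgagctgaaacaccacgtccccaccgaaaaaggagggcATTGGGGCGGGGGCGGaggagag
TATAAA and the AP-1 letters stand close together in Mmp13 and Mmp3. Neither is in the Mmp27 window, and in Mmp14 overlapping CCAAT and GC box letters lie near the start. A match of letters is a description of the sequence and not a binding site.

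Immune cell markers are given beside the Mmp genes. Of the 8 Kupffer cell markers, Clec4f, a lectin of these resident macrophages, was called higher in Fmo5-/- by edgeR (log2 fold change 0.70, SE 0.11, adjusted p = 0.027), and 7 were called by DESeq2 (8.96% of all genes). Cd5l, which they secrete, had 1.25 (SE 0.24). All 8 had a higher mean, and 7 lay higher in Fmo5-/- with no overlap (13.9% of all genes). The summed normalized count of the list was 9045 to 10777 in WT and 14133 to 25980 in Fmo5-/-, and no marker was at 0. Fmo5-/- replicate 3 had the lowest sum of the Fmo5-/- libraries for these markers and, in the same group, the lowest Mmp9 and Mmp27. The order was not that of the marker sum throughout: Mmp27 was highest in Fmo5-/- replicate 2, and Mmp12, with 6.52, 32.1 and 12.8 normalized counts in Fmo5-/-, was lowest in replicate 1, where the marker sum was highest. Of the 8 neutrophil markers 3 were tested, 0 were called by edgeR, and S100a9, a calprotectin subunit, was called by DESeq2 (log2 fold change 1.26, SE 0.43), beside 1.29 (SE 0.45) for its partner S100a8. Their summed count was 52.1 to 130 in WT and 134 to 306 in Fmo5-/-, and the defining marker Ly6g was at 0 in all libraries but Fmo5-/- replicate 2. The part of these cells in the Mmp values was not tested.

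Of the 4 Timp genes 2 were tested. Timp2 (chr11:118301069-118355740), which also helps Mmp14 to activate the Mmp2 product, had 487, 509 and 660 normalized counts in WT and 555, 717 and 662 in Fmo5-/-. Its log2 fold change of 0.22 (SE 0.14) was 0.38 without WT replicate 3 and 0.14 without Fmo5-/- replicate 2. Timp3 (chr10:86300372-86349506), the matrix-bound inhibitor, had 168, 327 and 226 in WT and 176, 177 and 180 in Fmo5-/-. WT replicate 2 stands apart, and the log2 fold change of -0.44 (SE 0.22, adjusted p = 0.30) was -0.15 without that library. Timp3 shares 1733 exon bases with Syn3 on the opposite strand. On the reads of 1 strand its log2 fold change was -0.21 (adjusted p = 0.47 in edgeR), which, as for Mmp19, does not settle the part of the shared bases. Timp1, the inhibitor that rises in liver fibrosis, had 22 raw counts in WT and 47 in Fmo5-/-, of which Fmo5-/- replicate 2 held the most, and was not tested.

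Of the genes that act with collagens and laminins, 0 of 93 tested passed edgeR in either direction, beside 1.37% of all genes; 18 had an unadjusted p under 0.05 (21.8% of all genes), and DESeq2 called 7 (8.96% of all genes). In collagen processing and export (23 tested), DESeq2 called 3 lower and 1 higher. P4hb, the protein disulfide isomerase that is also a subunit of prolyl 4-hydroxylase, had 70990 ± 4060 normalized counts in WT and 57549 ± 2740 in Fmo5-/- (SD, n = 3 each; log2 fold change -0.30, adjusted p = 0.11 in edgeR and 0.017 in DESeq2). Mia2 and Mia3, which help large cargo leave the endoplasmic reticulum, had log2 fold changes of -0.37 (SE 0.12) and -0.34 (SE 0.10). These genes serve many secreted proteins besides collagen. Pcolce2, an enhancer of procollagen cleavage, had a log2 fold change of 0.77 (SE 0.24). Serpinh1, the chaperone specific to collagen, had 0.09 (adjusted p = 0.89).

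Among 15 basement membrane partners and receptors, Hspg2, which encodes perlecan, had 1118, 1245 and 1484 normalized counts in WT and 1909, 1898 and 1576 in Fmo5-/-. The groups do not overlap, and the log2 fold change was 0.48 (SE 0.12, adjusted p = 0.075 in edgeR and 0.014 in DESeq2). Agrn, another heparan sulfate proteoglycan, had a log2 fold change of 0.28 (SE 0.08), and Itgb1, the integrin chain that binds both collagen and laminin, of -0.19 (SE 0.10). In other matrix proteins (20 tested), neither tool called a gene, and Vtn (vitronectin) and Fn1 (fibronectin), products of hepatocytes, had log2 fold changes of 0.08 (SE 0.11) and 0.10 (SE 0.16). In the TGF-beta axis (19 tested), neither tool called a gene, and Eng, a co-receptor of endothelial cells, had a log2 fold change of 0.08 (SE 0.08) and Ltbp4, which binds latent TGF-beta, of -0.28 (SE 0.12). Among 18 tested regulators of proteolysis outside the Mmp and Timp families, DESeq2 called 2 lower, near its share of all genes (8.96%). Serpine2, an inhibitor of thrombin and urokinase, had 669, 966 and 981 in WT and 664, 376 and 553 in Fmo5-/- (log2 fold change -0.72, SE 0.23). Adam9, a membrane-bound protease, had a log2 fold change of -0.41 (SE 0.11). Plg, which encodes plasminogen, and Bsg, an inducer of metalloproteinases, had -0.04 (SE 0.11) and 0.01 (SE 0.09). The median over the 93 genes was 0.10.

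Among markers of stellate cells, portal fibroblasts and smooth muscle, edgeR called 0 (1.37% of all genes) and DESeq2 called 1 (8.96% of all genes). Of 16 hepatic stellate cell markers, 12 had a higher mean in Fmo5-/-, with a median log2 fold change of 0.16 and a summed normalized count of 26195 to 28872 in WT and 24631 to 28154 in Fmo5-/-. The gene that DESeq2 called, Tmem56, was lower (log2 fold change -0.55, SE 0.14) and the most abundant of the list. Without it, an alternative added after seeing the data, the sum was 17492, 15756 and 18185 in WT and 16993, 21708 and 18586 in Fmo5-/-, highest in Fmo5-/- replicate 2, and its mean was higher rather than lower in Fmo5-/-. Ecm1 had a log2 fold change of 0.11 (SE 0.09). Of 11 tested portal fibroblast and mesenchymal markers 9 had a higher mean (median 0.21). The sum of the list was 6136 to 7588 in WT and 6030 to 8770 in Fmo5-/-, highest in Fmo5-/- replicate 2. Dcn, the small proteoglycan decorin, made up most of that sum, with 5742, 5101 and 6250 in WT and 4900, 7370 and 6112 in Fmo5-/-. Dcn and Lum, lumican, had log2 fold changes of 0.10 (SE 0.15) and 0.07 (SE 0.16). The sum of the smooth muscle and myofibroblast markers was 1194 in WT replicate 2 and 551 to 724 in all other libraries, and their median log2 fold change was -0.40, with 0.34 (SE 0.14) for Des and -0.50 (SE 0.38) for Myh11. The part of these cells in the matrix gene values was not tested.

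The 7 mesothelial markers had a summed count of 377 to 513 in WT and 231 to 554 in Fmo5-/-, lowest in Fmo5-/- replicate 1, with log2 fold changes of 0.09 (SE 0.31) for Upk3b and -0.29 (SE 0.31) for Gpm6a. The cholangiocyte markers summed to 2670 to 4415 in WT and 3145 to 3569 in Fmo5-/-, highest in WT replicate 3, with a log2 fold change of 0.11 (SE 0.25) for Spp1. Among 12 sinusoidal endothelial markers DESeq2, which called 8.96% of all genes, called 2 lower, Fcgr2b (log2 fold change -0.44, SE 0.11) and Bmp2 (-0.58, SE 0.20), while the scavenger receptors Stab2 and Stab1 had 0.23 (SE 0.08) and 0.15 (SE 0.10). Neither tool called any of the 10 hepatocyte markers, and Alb (albumin) and Ttr (transthyretin) had -0.06 (SE 0.15) and -0.11 (SE 0.11). Over the 80 tested markers of all lists, 22 had an unadjusted p under 0.05, against 21.8% of all genes.

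**Figure D4:**
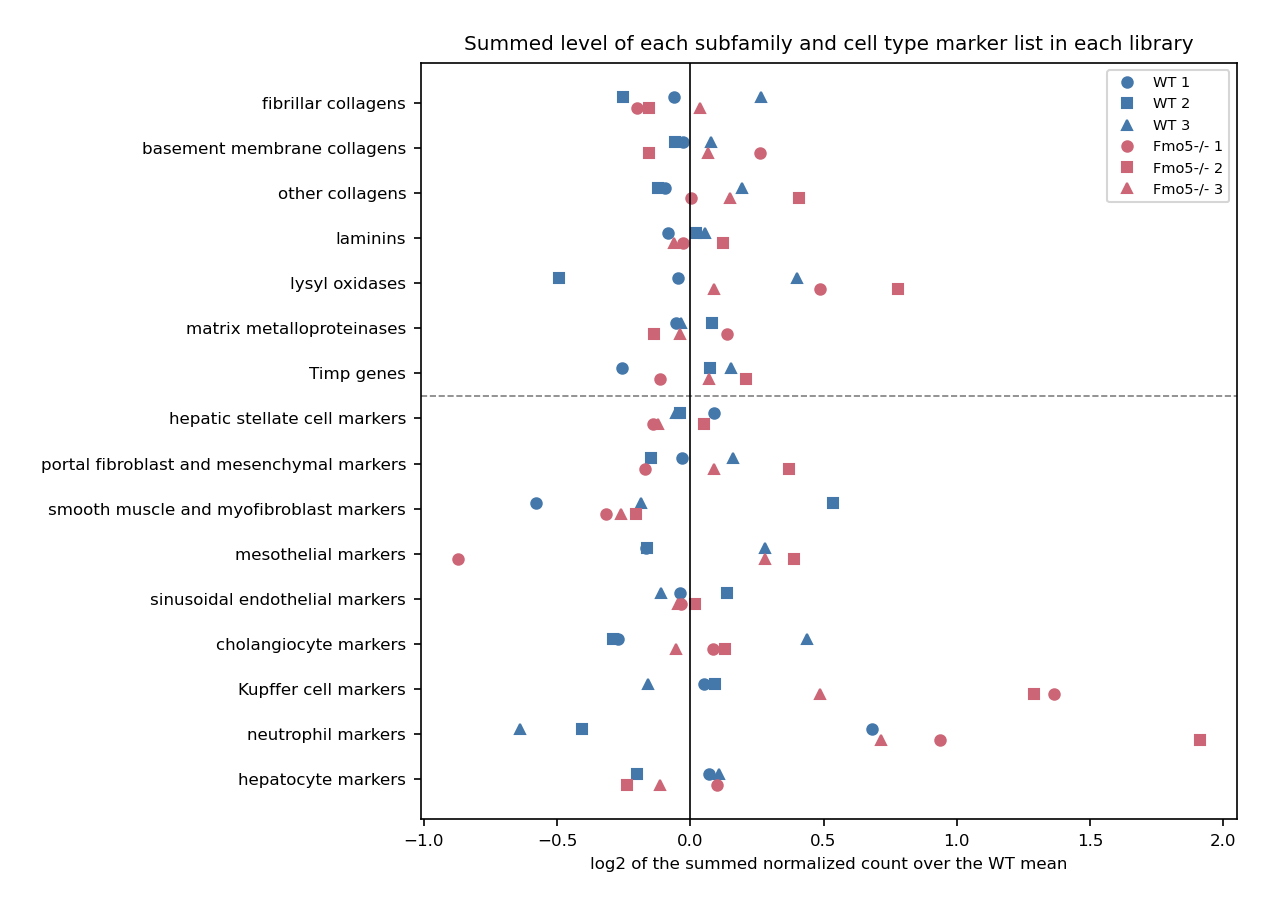
Log2 of the summed normalized count over the WT mean (x axis) for 7 matrix subfamilies and 9 cell type marker lists (y axis, divided by the dashed line), with 1 point per library. The Kupffer cell list separates the genotypes, with 14133 to 25980 against 9045 to 10777, as does the neutrophil list by a small margin, and the matrix subfamilies overlap.

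Col4a3bp, caught by its symbol, had 2597, 2272 and 2129 normalized counts in WT and 1920, 1752 and 2114 in Fmo5-/-. The groups do not overlap, but WT replicate 3 and Fmo5-/- replicate 3 nearly meet, and the log2 fold change was -0.27 (SE 0.10, adjusted p = 0.17). Loxhd1 had 2 raw counts in WT and 0 in Fmo5-/-.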

How the data were processed

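RNA-seq libraries of 3 WT and 3 Fmo5-/- livers were analysed. Per the study's methods, the authors clipped adapters, mapped single reads to mm10 with STAR and counted reads per gene; the annotation release is not given in the sources used here. The deposited counts are raw reads per gene, for both strands and for each strand. The deposited signal columns hold counts that the authors divided by 1 size factor per library, and were used only to check the counts. The authors' own comparison columns (fold changes, statistics and p-values from DESeq2) were not used. Reads not assigned to a gene (30.8% to 33.8% of those listed) stayed out of library sizes.

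Counts of both strands were filtered (filterByExpr, minimum count 10), normalized by TMM and tested in edgeR 4.0.16 (robust quasi-likelihood, R 4.3.3), with Benjamini-Hochberg adjustment over 16734 genes; DESeq2 1.42.0 was the alternative. The SE is the fold change over the root of F, and intervals are 95% confidence intervals. FPKM used TMM-scaled counts and the union of exons in GENCODE vM21, matched by gene identifier. The code was tested on simulated data. Named genes are Fmo5, matrix genes called by either tool, with a mean of 500 or more or among the 3 highest per length of a subfamily, and of each list the called genes and the 2 highest; Col1a1, Col5a2, Col6a2, Col6a3, Col6a6, Col8a2, Col9a3, Lama3, Lama5, Lox, Loxl3, Mmp2, Mmp3, Mmp9, Mmp12, Mmp13, Mmp27, Timp1, Serpinh1, Ly6g and the genes without a count were added after their values were seen. Some genes that the rule covers are not reported here. The matrix genes and lists were chosen with earlier results of these data known. Labels do not say more of how replicates arose, so p-values measure the spread between these samples.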

Additional observations from a re-analysis of the deposited data

How the results depend on the processing

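Fitted as in the report, 0 matrix genes were called. With no filter on low counts, 4 matrix genes were called higher (Col20a1, Mmp9, Mmp12 and Mmp27) and 2 lower (Lamb3 and Mmp19), in a fit that called 5.82% of all genes against 1.37% in the report's, and DESeq2 called 1 higher and 2 lower. With other scaling, on the reads of 1 strand or with a limit of 500 on the mean before the fit the count stayed 0. When 1 library was left out, the count was 0 to 1 higher, the 1 being Mmp27 without Fmo5-/- replicate 3, and 0 lower. Each such fit had an arm of 2 libraries.

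In the pathway lists, 0 genes were called higher and 0 lower; DESeq2 called 2 and 5, the fit with no filter 5 and 7, and the fits without 1 library 0 to 2 and 0. In the cell type lists, 1 gene was called higher and 0 lower. DESeq2 called 8 and 3, the fit with no filter 10 and 4, and the fit on 1 strand 2 higher. The fits without 1 library called 0 to 8 higher and 0 to 1 lower. The 8 were called without Fmo5-/- replicate 3, where 4.45% of all genes were called. For both kinds of list, the shares of all genes called were 1.37% in the main fit, 8.96% in DESeq2 and 5.82% with no filter. On 1 strand the share was 1.503%, and without 1 library it ran from 0.182% to 4.45%.

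With the limit of 500, the median log2 fold change became 0.11 for the 3 basement membrane collagens left and 0.063 for the 3 Mmp genes left. For Timp genes it became 0.29, the value of Timp2, the only 1 left. Fewer genes were tested and the values of single genes moved as well, and the cause was not tested. Without 1 library it ran from 0.042 to 0.46 for fibrillar collagens, from 0.20 to 0.70 for lysyl oxidases, from 0.11 to 0.48 for Mmp genes and from 0.063 to 0.51 for other collagens, the high values for fibrillar collagens and lysyl oxidases being without WT replicate 3 and the low values for fibrillar collagens, Mmp genes and other collagens without Fmo5-/- replicate 2; the cause was not tested. Fmo5 stayed between -5.10 and -4.91.

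Of 38 matrix genes given with values, 26 kept their direction in all alternatives run. The limit of 500 turned Col4a2 to 0.064, Col5a3 to 0.060 and Mmp15 to 0.063. Leaving out 1 library gave -0.041 to 0.19 for Col18a1, -0.024 to 0.55 for Col1a2, -0.17 to 0.19 for Col4a1, -0.14 to 0.11 for Col4a2, -0.10 to 0.10 for Col5a3, -0.11 to 0.046 for Lamb1, -0.056 to 0.13 for Lamc1, -0.021 to 0.69 for Col6a3, -0.22 to 0.88 for Col6a6, -0.49 to 0.24 for Lox, -0.065 to 0.70 for Loxl1 and -0.11 to 0.15 for Mmp15.
No paired analysis was possible because the labels give no replicate numbers that the genotypes share. With the longest transcript in place of the union of exons, levels per length were 183 FPKM for Col18a1, 14.4 for Col27a1, 4.84 for Col3a1, 1.73 for Lamb1, 0.907 for Timp3 and 8.94 for Mmp14. Without Tmem56, an alternative chosen after seeing the data, the log2 ratio of the summed stellate cell markers went from -0.067 to 0.16. The 29 untested genes had too few counts for the test, and the cause was not tested.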
